A study of Mus musculus with 12 samples.

Results

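The translation initiation factors (Eif1 to Eif6) and elongation factors (Eef1 and Eef2) were followed in tumour tissue of mice treated with minP1, with an antibody against PD-L1, or with both. Members were every gene symbol that begins with Eif followed by a digit from 1 to 6, or with Eef followed by 1 or 2, and that had at least 50 counts summed over the 12 tables. Of 19921 symbols, 67 begin so, and 54 reached the minimum, of which Eif2b3 came closest to it with 70 counts. The other 13 fell under it, with Eif4ebp3 the closest at 46 counts, and are not described further, apart from their names and counts in the closing section. Among all symbols, 7343 reached the same minimum.

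Initiation factors bring the small ribosomal subunit to the capped end of an mRNA, carry the initiator tRNA, unwind the leader and check the start codon. Elongation factors then deliver each aminoacyl-tRNA (eEF1) and move the ribosome along by one codon (eEF2). Leukocytes raise their translation when they are activated, and the mRNAs of several elongation factors begin with an oligopyrimidine tract, a feature they share with ribosomal protein mRNAs and through which the kinase mTORC1 controls their translation.

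The combined group (minP1_PDL1, the combination from here on) received anti-PD-L1 antibody at 200 µg on days 4 and 8 and minP1, an immune-stimulating peptide of the chromatin protein HMGN1, at 0.08 µg on day 9. The PDL1 group received the antibody alone at those times, the minP1 group the peptide alone, and the Ct group was the control. All were wild-type BALB/c mice that carried Colon26 tumours under the skin of the flank, grown from 200000 cells of this mouse colon carcinoma line, and all injections were intraperitoneal. Tumours were taken on day 10, 1 per mouse and 3 mice per group, and digested, and their total cells were profiled after cancer cells and dead cells had been depleted on Percoll. For the combination the labels name the peptide only in the sample title, so every result of that group rests on the title. The age of the mice is not given in the sources used here, and the transplanted tumour is of a single cell line.

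Each table holds whole-number counts of 5′-end tags (5′SAGE, which reads the start of each captured transcript) per gene symbol. Levels below are CPM, counts relative to a library's effective size (the total of the tested genes scaled by its TMM factor), and since a transcript gives 1 tag they need no length correction. A level after which ± stands has the SD over 3 libraries, and a log2 fold change after which ± stands has its SE from edgeR's quasi-likelihood fit. A gene is said to have risen or fallen where its Benjamini-Hochberg adjusted p over all 5443 tested genes was under 0.05.

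Total counts ran from 133917 to 473273 per library, a 3.53-fold range, with the combination lowest at 133917 to 196109. Counts of Bc1, a noncoding RNA, plus Lrrc17 took 2.49% to 6.32% of the combination's libraries, 2.35% to 4.42% of PDL1, 1.497% to 4.17% of minP1 and 1.36% to 2.34% of Ct. This share moved with the groups and varied within them. Combination replicate 3 (2.49%) lay far below the other 2 libraries of its group (5.04% and 6.32%), and minP1 replicate 2 (4.17%) far above its own (1.94% and 1.497%), while PDL1 replicate 1 (4.42%) was the highest of 3 spread values. The 14 leukocyte markers found in the tables (of 15 listed) summed to 678 to 1113 CPM (of total counts, for these marker lists) in the combination and 679 to 813 in Ct. The 5 carcinoma epithelial markers found (of 8) summed to 0 to 51.0 in the combination and at most 21.1 in Ct, with Krt8, Krt18 and Krt19 each at 0 in at least 1 group. The 7 fibroblast markers summed to 739 to 1068 in the combination and 869 to 1283 in Ct, and the 8 erythroid markers to 872 to 1943 in the combination and 1317 to 2681 in Ct. The 6 endothelial markers summed to 25.5 to 67.2 in the combination (Kdr and Tek at 0), 0 to 21.7 in PDL1, 7.24 to 12.8 in minP1 and 6.999 to 29.3 in Ct, so their median was higher in the combination (45.3) than in Ct (21.1). The 4 skeletal muscle markers found (of 6) summed to 7.47 to 17.0 in the combination and 4.23 to 10.7 in Ct. The part of these cell types and of depth in the results below was not tested. In bulk tissue, fewer cells of a type and less RNA per cell cannot be told apart.

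The 54 members took 1.43% to 1.45% of all counts in the combination, 1.45% to 1.58% in PDL1, 1.59% to 1.70% in minP1 and 1.55% to 1.86% in Ct. Their summed level was 15906 ± 1437 CPM in the combination and 18321 ± 1482 CPM in Ct. Eef1a1 and Eef2 together held 30.7% to 35.7% of the members' counts in the combination and 27.7% to 32.2% in Ct. 49 members passed the filter on low counts and were tested. They were deeper than most genes, with a median of 657 counts over the 12 tables against 197 for all tested genes. The other 5, Eif4enif1 (83 counts), Eif4e2 (74), Eif2d (73), Eef1akmt2 (71) and Eif2b3 (70), were not tested.

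In the combination against Ct, 20 of 49 tested factors passed, 5 higher and 15 lower, which is 40.8% against 34.8% of all tested genes. The share called in both directions together was thus near the background of this comparison. By direction, 16.5% of all tested genes were higher and 18.3% lower, beside 5 and 15 of the 49 factors. The called factors thus leaned more to the lower side than called genes at large, a difference that was not tested. The median log2 fold change of the tested factors was -0.44, and that of all tested genes -0.06. Eef2, Eef1d, Eif3b, Eif4a2 and Eif4e3 were higher. Eef1a1, Eef1b2, Eef1e1, Eef1g, Eif1, Eif2a, Eif2s2, Eif3a, Eif3d, Eif3h, Eif3j1, Eif3j2, Eif3k, Eif4a1 and Eif4g1 were lower. Higher and lower members stood side by side in the eEF1, eIF3 and eIF4 complexes. With the Bc1 plus Lrrc17 level as a covariate, 7 of the 20 calls were left, those of Eef1a1, Eef1e1, Eef1g, Eif2s2, Eif3a, Eif4a2 and Eif4e3, and the same 7 held under each of 20 alternatives tried. Among all 5443 tested genes, 774 were called with this covariate and 1892 without it. Of the 13 factor calls lost with the covariate, the log2 fold change was smaller for 9 and at least as large for 4 (Eif3d, Eif3h, Eif3j1 and Eif3j2). The 3 libraries of the combination did not overlap those of Ct for 26 of 49 factors, against 45.9% of all tested genes.

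**Figure D1:**
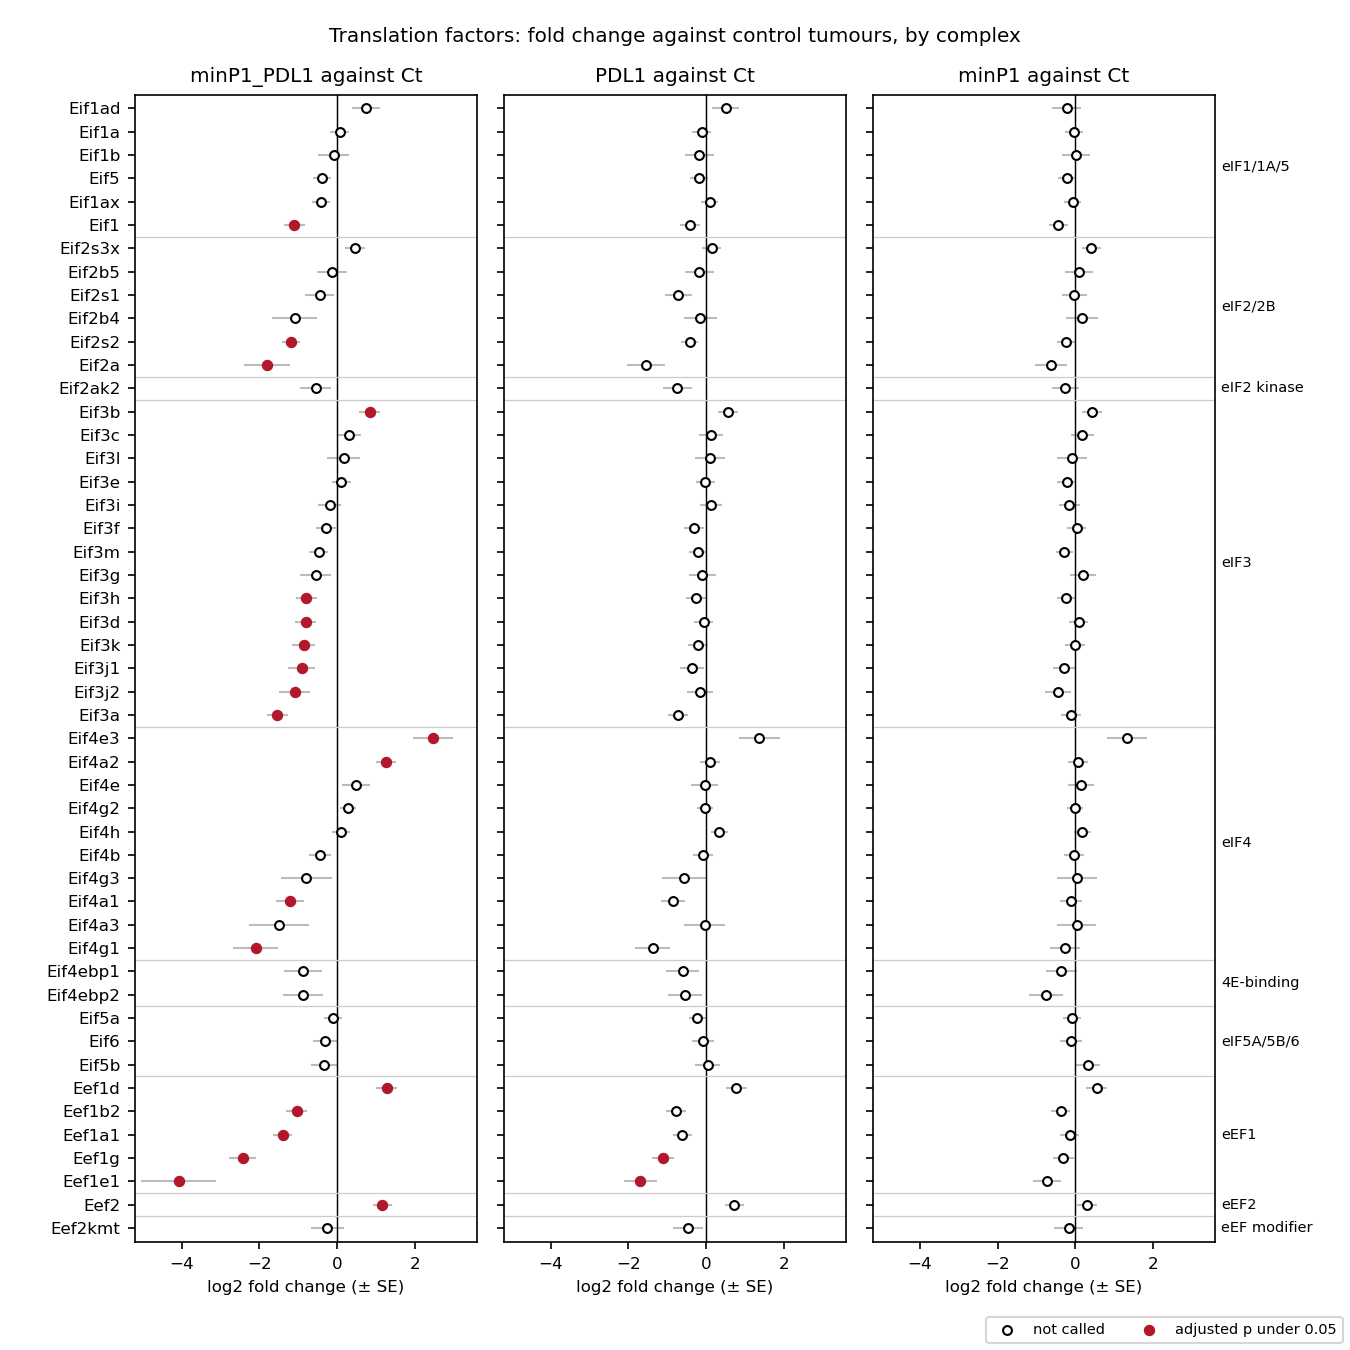
Log2 fold change of each tested factor, by complex, in the combination against Ct, PDL1 against Ct and minP1 against Ct (1 panel each; horizontal axis log2 fold change, bars ± SE). Filled points are the 20, 2 and 0 factors with an adjusted p under 0.05, and in the first panel they lie on both sides of 0 within eEF1, eIF3 and eIF4.

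The elongation factors Eef1a1 and Eef2 exchanged rank. Eef1a1, the GTPase that carries aminoacyl-tRNA to the ribosome, had 1289, 1689 and 1365 CPM in the combination, 1650.1, 2814 and 3027 CPM in PDL1, 3518, 2955 and 3935 CPM in minP1 and 3019, 4322 and 4120.4 CPM in Ct. All 3 libraries of the combination lay below all 6 of minP1 and Ct, while those of PDL1 spanned the gap. In the combination against Ct it fell, with a log2 fold change of -1.40 ± 0.25 and an adjusted p of 0.000202 (edgeR's quasi-likelihood test), and it also fell against minP1 (-1.26 ± 0.25, adjusted p = 0.00116). Eef2, the translocase, had 4328, 4327 and 3013 CPM in the combination, 3723, 2224 and 2648 CPM in PDL1, 1893, 2874 and 1624 CPM in minP1 and 1586, 1942 and 1659 CPM in Ct. The combination lay above both minP1 and Ct in all 3 libraries, and PDL1 overlapped it. It rose by 1.17 ± 0.25 on the log2 scale against Ct (adjusted p = 0.00121) and by 0.87 ± 0.25 against minP1 (adjusted p = 0.0181). The call against Ct was lost with the Bc1 plus Lrrc17 covariate, where the log2 fold change was 0.55 (adjusted p = 0.107). The call against minP1 was also lost there (0.46, adjusted p = 0.147) and without minP1 replicate 1, minP1 replicate 3, combination replicate 1 or combination replicate 2. Within a library, which needs no scaling, counts of Eef2 over those of Eef1a1 stood at 3.36, 2.56 and 2.21 in the combination, 2.26, 0.791 and 0.875 in PDL1, 0.538, 0.973 and 0.413 in minP1 and 0.525, 0.449 and 0.403 in Ct. Eef2 thus outnumbered Eef1a1 in all 3 libraries of the combination and in PDL1 replicate 1, and in no other library.

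Eef1a1 lies on chromosome 9, 78478449 to 78489151, minus strand, and Eef2 on chromosome 10, 81176631 to 81182498, plus strand (GRCm38, GENCODE M21). Their RefSeq promoters (GRCm38.p6), from 70 bases before to 30 after the annotated start, are shown because these 2 abundant factors moved in opposite directions, with chr9:78481695-78481794 (minus strand) for Eef1a1 and chr10:81176561-81176660 (plus strand) for Eef2. Capitals mark motif matches. The Eef2 window holds the E-box CACGTG. It also holds a TATA box and a cAMP response element, whose letters are given with the search over all promoters. The Eef1a1 window has none of these motifs in their exact letters. It ends in tatataa, which an exact search does not count and which lies after the annotated start, whereas the TATA box of Eef2 lies before it. The Eef1a1 window also lies inside the GENCODE gene, which on the minus strand begins at 78489151. Only the outer bounds of that gene were read, so whether its transcripts start elsewhere than in RefSeq was not examined.
Eef1a1: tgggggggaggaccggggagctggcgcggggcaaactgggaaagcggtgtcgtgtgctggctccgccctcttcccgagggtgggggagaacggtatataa
Eef2: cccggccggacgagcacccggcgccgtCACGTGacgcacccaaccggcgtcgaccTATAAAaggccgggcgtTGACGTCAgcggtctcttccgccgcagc

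The subunits of the guanine exchange complex of eEF1, which recharges eEF1A with GTP, also split. Eef1g, the gamma subunit, had 59.8, 83.5 and 50.8 CPM in the combination, 133, 133 and 214 CPM in PDL1, 335, 179 and 339 CPM in minP1 and 341, 369 and 345 CPM in Ct. The combination lay below all 9 other libraries, and PDL1 lay below Ct without overlap. Eef1g fell in the combination against Ct (-2.43 ± 0.35, adjusted p = 1.17e-05, the smallest of all the factors), against minP1 (-2.13 ± 0.35, adjusted p = 0.000149) and against PDL1 (-1.31 ± 0.36, adjusted p = 0.0241). Against PDL1 the call was lost without PDL1 replicate 3, combination replicate 1 or combination replicate 3. Eef1d, the delta subunit, had 965, 1056 and 530.4 CPM in the combination, 719, 478 and 613 CPM in PDL1, 425, 688 and 425 CPM in minP1 and 303, 406 and 340.4 CPM in Ct. Each treated group lay above Ct without overlap, and the combination against Ct passed (1.28 ± 0.27, adjusted p = 0.00102), whereas PDL1 (0.78 ± 0.27, adjusted p = 0.127) and minP1 (0.55 ± 0.27, adjusted p = 0.704) against Ct did not. The combination's change was 0.54 with the Bc1 plus Lrrc17 covariate and no longer called (adjusted p = 0.205). Eef1b2, the beta subunit, had 427, 495 and 378 CPM in the combination, 326, 549 and 661 CPM in PDL1, 659, 571 and 827 CPM in minP1 and 673, 1053 and 947 CPM in Ct. It fell in the combination against Ct (-1.04 ± 0.26, adjusted p = 0.00421), again not with the covariate (-0.77, adjusted p = 0.106). Its annotation overlaps Ndufs1 on the opposite strand, and whether counting used strand is not given in the sources used here. Eef1d over Eef1g within a library was 16.1, 12.6 and 10.4 in the combination, 5.41, 3.58 and 2.87 in PDL1, 1.27, 3.84 and 1.25 in minP1 and 0.891, 1.10 and 0.987 in Ct. The lowest ratio of the combination, 10.4, lay above the highest elsewhere, 5.41, and minP1 replicate 2 stood with PDL1. These ratios rest on 30 counts of Eef1g in the combination and 120 in PDL1.

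Eef1e1 is named for eEF1 but encodes a scaffold protein of the multi-tRNA synthetase complex. It had 0, 5.97 and 5.64 CPM in the combination, 18.1, 29.7 and 24.1 CPM in PDL1, 56.4, 51.3 and 39.5 CPM in minP1 and 100.2, 91.4 and 53.7 CPM in Ct, levels that rest on 2, 18, 41 and 84 counts. Neighbouring groups in that order did not overlap, apart from minP1 and Ct. The 2 counts of the combination give 5.51% of the Ct level, with a 95% exact interval of 0.657% to 20.5% for counting error, and 8.90% of the minP1 level (1.04% to 34.3%). Eef1e1 passed in the combination against Ct (adjusted p = 5.15e-05) and against minP1 (adjusted p = 0.00177), the second not at equal depth (adjusted p = 0.0629). Eef1g (on chromosome 19, 8967041 to 8978479, plus strand) and Eef1e1 (on chromosome 13, 38644207 to 38659058, minus strand) were the only 2 factors that also passed in PDL1 against Ct.

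**Figure D2:**
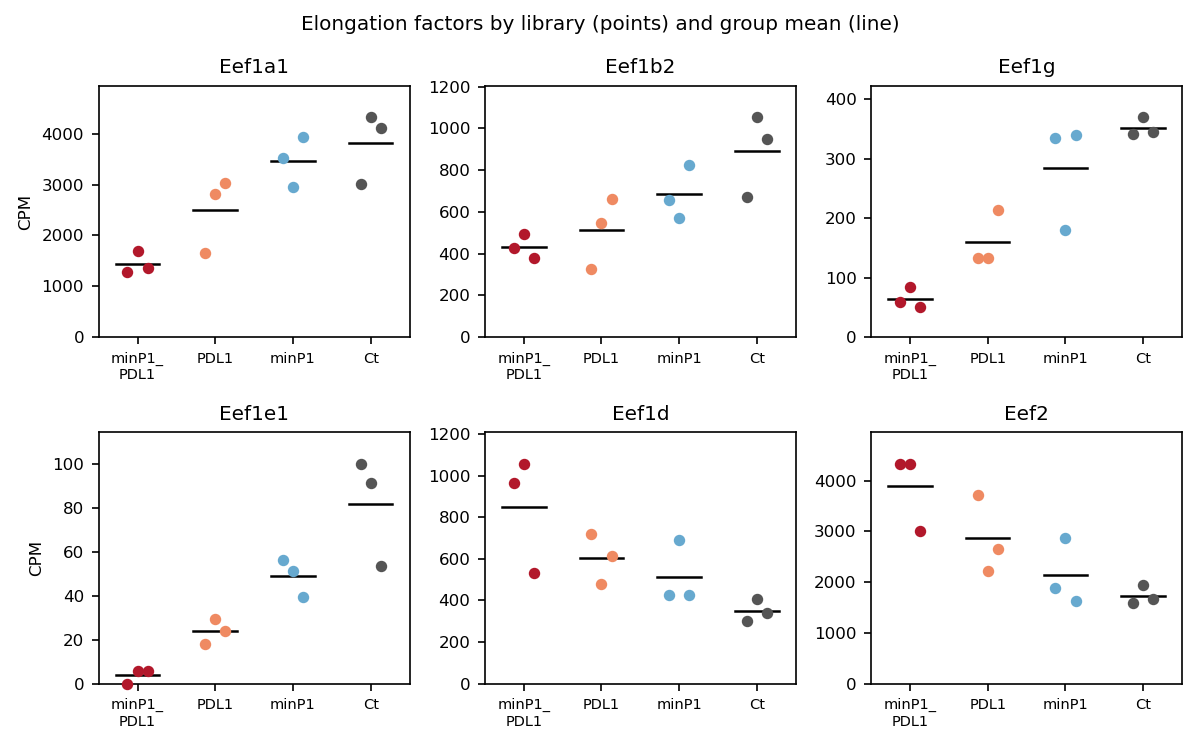
Levels of 6 elongation factors in CPM (vertical axis, from 0) by library (points) with group means (lines), for the combination, PDL1, minP1 and Ct from left to right. Eef1a1, Eef1b2, Eef1g and Eef1e1 are lowest and Eef1d and Eef2 highest on average in the combination.

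In PDL1 against Ct, 2 of 49 factors passed, both lower, which is 4.08% against 1.12% of all tested genes (0.57% in the lower direction). The log2 fold changes were -1.11 ± 0.28 for Eef1g (adjusted p = 0.0458) and -1.69 ± 0.43 for Eef1e1 (adjusted p = 0.0391). Both calls were lost with the Bc1 plus Lrrc17 covariate, where Eef1g was -0.92 (adjusted p = 0.236) and Eef1e1 -1.90 (adjusted p = 0.0551), a larger change than without it. Both were also lost at equal depth, without PDL1 replicate 1 and minP1 replicate 2, and without any 1 of the 3 PDL1 libraries, Ct replicate 1 or 2, minP1 replicate 1 or combination replicate 2, taken 1 at a time. The Eef1g call was lost as well without Ct replicate 3, minP1 replicate 3 or combination replicate 1, and the Eef1e1 call with DESeq2, which called 3 factors (1 higher and 2 lower). Libraries of PDL1 and Ct did not overlap for 10 of 49 factors, against 23.5% of all tested genes. In minP1 against Ct no factor and no other gene passed in edgeR. Only Eif4e3 had an unadjusted p under 0.05 among the factors (log2 fold change 1.33 ± 0.53, adjusted p = 0.562), and DESeq2 called 0 factors. Libraries of minP1 and Ct did not overlap for 7 of 49 factors, against 12.4% of all tested genes.

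Among initiation factors, the scanning group (eIF1, eIF1A and eIF5), which finds and checks the start codon, summed to 1339.6 ± 205 CPM in the combination and 1919 ± 100 CPM in Ct. Of its 6 members only Eif1 passed in that comparison, beside 34.8% of all tested genes. Eif1, which holds the scanning ribosome open until the start codon, had 239, 376 and 485 CPM in the combination, 441, 623 and 723 CPM in PDL1, 677, 410.1 and 685 CPM in minP1 and 769.9, 797 and 822 CPM in Ct. All 3 libraries of the combination lay below Ct, with a log2 fold change of -1.10 ± 0.27 (adjusted p = 0.00319), and the call was lost with the Bc1 plus Lrrc17 covariate (-0.60, adjusted p = 0.168). The first 100 bases of Eif1 transcripts are at least 95% identical to a stretch in transcripts of 12 other annotated genes, mostly pseudogenes. Of these, 1, Emd, is counted in the tables. Where in those transcripts the match lies was not examined, so whether tags are shared is not known. Eif5, which triggers GTP hydrolysis by eIF2, had 326 ± 86.6 CPM in the combination, 378 ± 41.6 CPM in PDL1, 371 ± 19.3 CPM in minP1 and 429 ± 15.1 CPM in Ct and did not pass (-0.39 ± 0.24 against Ct, adjusted p = 0.205). The log2 fold changes of the rest in the combination against Ct, none called, were Eif1a 0.07 ± 0.25, Eif1ax -0.41 ± 0.23, Eif1ad 0.75 ± 0.37 and Eif1b -0.09 ± 0.40.

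The eIF2 complex carries the initiator tRNA, and eIF2B recharges it with GTP. Eif2s2, the beta subunit, was the most abundant of these genes and had 529, 591 and 609 CPM in the combination, 919, 971 and 1040.1 CPM in PDL1, 854, 1388 and 1106 CPM in minP1 and 1036, 1594 and 1315 CPM in Ct. The combination lay below all 9 other libraries. It fell against Ct (-1.18 ± 0.23, adjusted p = 0.000548) and against minP1 (-0.95 ± 0.24, adjusted p = 0.00669) under every alternative tried, and missed the threshold against PDL1 (-0.76 ± 0.24, adjusted p = 0.0512). The gene lies on chromosome 2, 154871410 to 154892935, minus strand. The other 2 subunits did not pass against Ct. Eif2s1, the alpha subunit whose phosphorylation slows initiation, had 55.8 ± 14.8 CPM in the combination, 44.9 ± 5.89 CPM in PDL1, 73.6 ± 6.82 CPM in minP1 and 73.0 ± 28.5 CPM in Ct (-0.45 ± 0.38, adjusted p = 0.366). Eif2s3x, the X-linked gamma subunit, had 230.1 ± 40.2 CPM in the combination, 183 ± 31.3 CPM in PDL1, 224 ± 19.5 CPM in minP1 and 167 ± 14.4 CPM in Ct (0.47 ± 0.25, adjusted p = 0.152). Within the one complex, then, the beta subunit alone was called, though a difference between subunits was not tested.

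Eif2a, a separate factor that can bring initiator tRNA to the ribosome, had 8.54, 5.97 and 33.9 CPM in the combination, 18.1, 26.0 and 17.2 CPM in PDL1, 52.7, 29.3 and 36.2 CPM in minP1 and 60.1, 76.8 and 49.3 CPM in Ct, from 8 counts in the combination. It fell against Ct (-1.80 ± 0.59, adjusted p = 0.0118), a call lost with DESeq2, with the Bc1 plus Lrrc17 covariate (-1.31, adjusted p = 0.186) and without combination replicate 2, while without combination replicate 3 the log2 fold change was -3.03. The eIF2B subunits Eif2b4 (-1.09 ± 0.57) and Eif2b5 (-0.13 ± 0.40) did not pass. Eif2b3 averaged 24.8 ± 11.5 CPM in the combination and 23.0 ± 12.9 CPM in Ct, and Eif2d, another initiator tRNA factor, 19.1 ± 13.02 CPM and 22.9 ± 2.72 CPM. Eif2ak2 encodes PKR, the kinase that phosphorylates eIF2 alpha when it meets double-stranded RNA and is itself interferon-induced. It had 102, 65.6 and 62.1 CPM in the combination, 72.5, 66.7 and 58.5 CPM in PDL1, 75.3, 128 and 72.4 CPM in minP1 and 54.4, 165 and 114 CPM in Ct. All 4 groups overlapped, and the combination did not differ from Ct at the threshold (-0.55 ± 0.39, adjusted p = 0.28).

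eIF3 is the largest initiation factor, a scaffold that joins the small subunit to mRNA and to eIF4G. Of its 14 tested genes 7 passed in the combination against Ct, 6 lower and 1 higher. Among all tested genes 34.8% passed there, 18.3% lower and 16.5% higher. Eif3a, its largest subunit, had 179, 239 and 181 CPM in the combination, 290.1, 382 and 368 CPM in PDL1, 489, 469 and 655 CPM in minP1 and 363, 647 and 730.0 CPM in Ct. The combination lay below all 9 other libraries, and fell against Ct (-1.53 ± 0.28, adjusted p = 0.000246) and minP1 (-1.42 ± 0.28, adjusted p = 0.00114), in both cases under every alternative tried. Eif3b, the scaffold of the second module, had 376, 376 and 327 CPM in the combination, 435, 263 and 210.1 CPM in PDL1, 278, 271 and 260.2 CPM in minP1 and 223, 212 and 168 CPM in Ct. It lay above Ct in every library of the combination (0.84 ± 0.26, adjusted p = 0.0164). That call was lost with no filter on low counts, with the covariate (0.57, adjusted p = 0.241), at equal depth and without Ct replicate 3. Eif3b over Eif3a within a library was 2.10, 1.57 and 1.81 in the combination, 1.5, 0.689 and 0.57 in PDL1, 0.569, 0.578 and 0.397 in minP1 and 0.614, 0.328 and 0.23 in Ct.

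The promoters of this pair are shown for the same reason as above, Eif3a at chr19:60790664-60790763 (minus strand) and Eif3b at chr5:140419235-140419334 (plus strand) in GRCm38.p6, 70 bases before to 30 after the RefSeq start. Eif3a carries an E-box (capitals) just after its start, and Eif3b has no searched motif in this window.
Eif3a: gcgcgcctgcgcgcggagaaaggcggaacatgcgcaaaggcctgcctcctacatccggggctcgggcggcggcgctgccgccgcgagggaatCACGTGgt
Eif3b: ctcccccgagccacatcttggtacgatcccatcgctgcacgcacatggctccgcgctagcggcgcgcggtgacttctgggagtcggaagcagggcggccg

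The other called eIF3 subunits were lower and closer to the threshold. Eif3d, which can itself bind the cap of some mRNAs, had 196, 119 and 118 CPM in the combination, 236, 271 and 207 CPM in PDL1, 226, 282 and 283 CPM in minP1 and 246, 252 and 246 CPM in Ct and fell against Ct (-0.81 ± 0.27, adjusted p = 0.0216) and minP1 (-0.90 ± 0.27, adjusted p = 0.0207). Both calls were lost at equal depth and without combination replicate 2 or 3, that against Ct also with no filter on low counts and with the covariate (-0.84, as large as without it, adjusted p = 0.0948), and that against minP1 also without minP1 replicate 3. Eif3h and Eif3k belong to the octamer that forms the body of eIF3. Eif3h averaged 222 ± 59.0 CPM in the combination, 312 ± 92.7 CPM in PDL1, 322 ± 38.2 CPM in minP1 and 379 ± 39.0 CPM in Ct and fell against Ct (-0.79 ± 0.27, adjusted p = 0.0252), a call lost with the covariate (-0.81, as large as without it, adjusted p = 0.112), at equal depth and without Ct replicate 2 or combination replicate 2 or 3. Eif3k averaged 103 ± 29.9 CPM in the combination, 162 ± 32.7 CPM in PDL1, 190.0 ± 4.90 CPM in minP1 and 189 ± 42.4 CPM in Ct and fell against Ct (-0.86 ± 0.30, adjusted p = 0.0255) and minP1 (-0.86 ± 0.30, adjusted p = 0.0419). Against Ct the call held under 13 of 20 alternatives and was lost with the covariate (-0.59, adjusted p = 0.287) and without Ct replicate 3 or combination replicate 1 or 2, and against minP1 it held under 6 of 20 and was lost without any 1 library of minP1 or PDL1, or combination replicate 1 or 2. Eif3j1 and Eif3j2, paralogous genes of the loosely bound j subunit, averaged 78.3 ± 37.0 and 57.9 ± 22.0 CPM in the combination and 142 ± 33.5 and 128 ± 24.7 CPM in Ct. Their log2 fold changes were -0.91 ± 0.35 (adjusted p = 0.0429) and -1.09 ± 0.41 (adjusted p = 0.0347), held under 8 and 13 of 20 alternatives. With the covariate both changes were larger and not called, at -1.08 (adjusted p = 0.101) for Eif3j1 and -1.37 (adjusted p = 0.061) for Eif3j2. The Eif3j1 call was lost without Ct replicate 2 or 3, any 1 library of PDL1, or combination replicate 2 or 3 (-0.61 without combination replicate 2), and the Eif3j2 call without Ct replicate 2 or 3 or combination replicate 1 or 3. Eif3j1 was the only called factor whose libraries overlapped between the combination and Ct. The 5′ end of Eif3j2 also matches a stretch in a transcript of Gm27325, an annotated gene that is not in the tables.

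The other 7 subunits were not called. Eif3m averaged 276 ± 46.0 CPM in the combination, 329.9 ± 44.1 CPM in PDL1, 316 ± 37.0 CPM in minP1 and 382 ± 38.4 CPM in Ct, with a log2 fold change of -0.47 ± 0.24 in the combination against Ct (adjusted p = 0.124). The changes of the rest were Eif3c 0.30 ± 0.31, Eif3e 0.11 ± 0.25, Eif3f -0.28 ± 0.26, Eif3g -0.55 ± 0.40, Eif3i -0.19 ± 0.29 and Eif3l 0.17 ± 0.42. The summed level of the complex was 2684 ± 326 CPM in the combination, 3158 ± 219 CPM in PDL1, 3334 ± 378 CPM in minP1 and 3489 ± 325 CPM in Ct, while Eif3a and Eif3b moved in opposite directions.

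**Figure D3:**
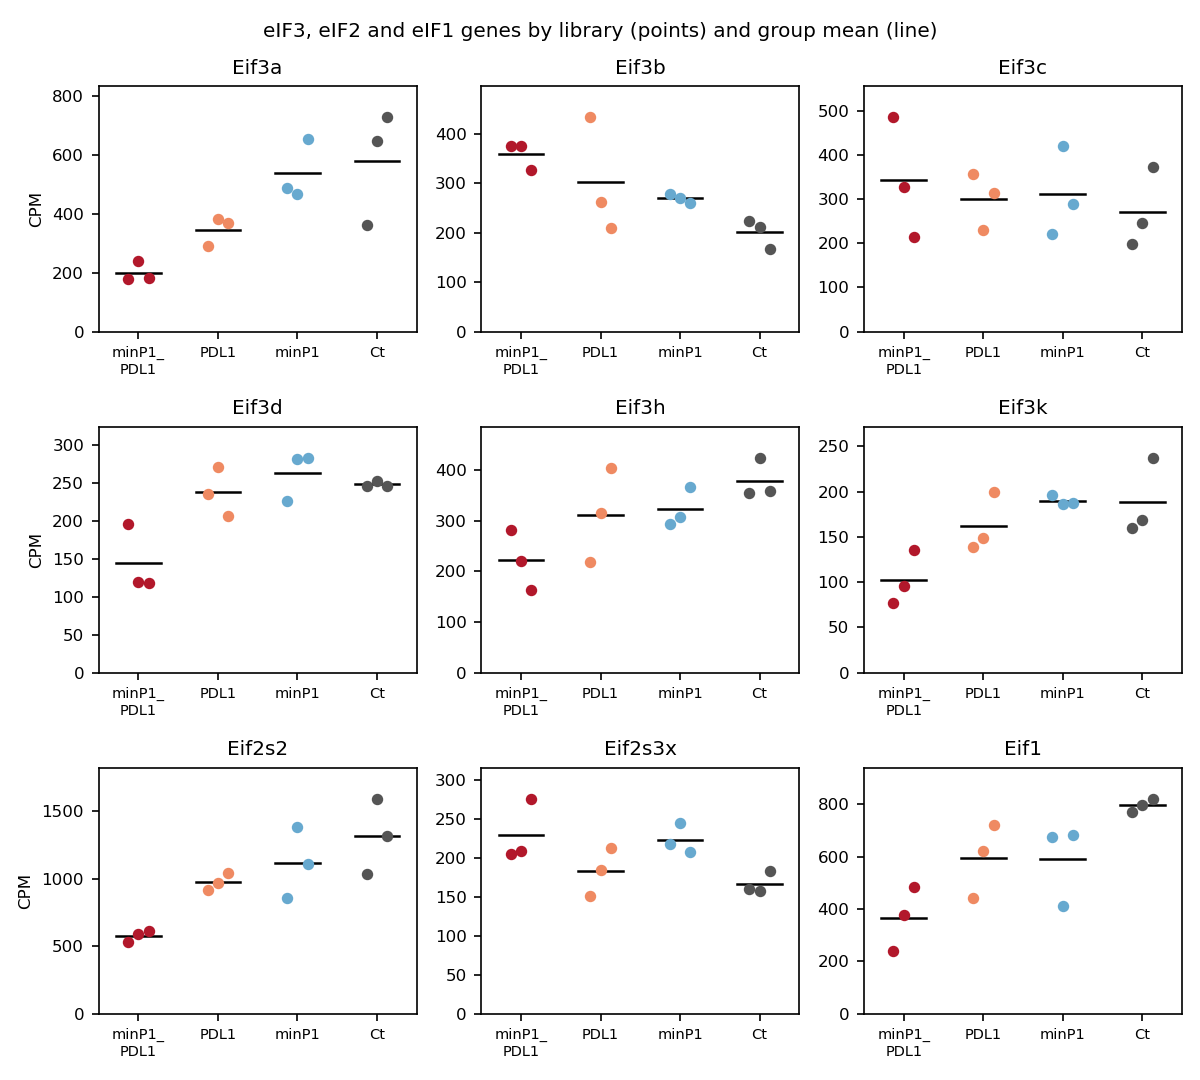
Levels of eIF3 and eIF2 genes and of Eif1 in CPM (vertical axis, from 0) by library (points) with group means (lines), for the combination, PDL1, minP1 and Ct from left to right. Eif3a and Eif2s2 are lowest in the 3 libraries of the combination, while Eif3b lies there above Ct.

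The eIF4 factors bind the cap (eIF4E), bridge it to eIF3 (eIF4G) and unwind the leader (eIF4A with eIF4B and eIF4H). Eif4a2 and Eif4a1 encode near-identical helicases and moved apart. Eif4a2 had 683, 585 and 745 CPM in the combination, 290.1, 297 and 310.0 CPM in PDL1, 342, 198 and 342 CPM in minP1 and 369, 263 and 213 CPM in Ct. The combination lay above all 9 other libraries, which overlapped among themselves. Eif4a2 rose against Ct (1.25 ± 0.25, adjusted p = 0.0007), against PDL1 (1.16 ± 0.26, adjusted p = 0.00917) and against minP1 (1.19 ± 0.26, adjusted p = 0.0024), each under all 20 alternatives. Neither PDL1 (0.09 ± 0.26) nor minP1 (0.07 ± 0.26) differed from Ct at the threshold. The interaction of the 2 treatments, which asks whether the combination departs from the sum of the lone changes, was 1.10 ± 0.36 with an adjusted p of 0.255, and so did not pass. Eif4a2 overlaps Rfc4 on the opposite strand, which had 4 counts in the combination and 24 in Ct, against 310 in the combination for Eif4a2 itself.

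Eif4a1 had 76.8, 59.7 and 45.1 CPM in the combination, 42.3, 85.3 and 92.99 CPM in PDL1, 117, 103 and 165 CPM in minP1 and 120.2, 172 and 125 CPM in Ct. The combination lay below minP1 and Ct, and fell against both (-1.22 ± 0.36 against Ct, adjusted p = 0.0101; -1.12 ± 0.37 against minP1, adjusted p = 0.0299). The call against Ct was lost with the Bc1 plus Lrrc17 covariate (-0.95, adjusted p = 0.155) and without combination replicate 3. That against minP1 held under 13 of 20 alternatives and was lost without minP1 replicate 1 or 3 or combination replicate 2 or 3. The 5′ end of Eif4a1 is also at least 95% identical to a stretch in transcripts of 2 annotated pseudogenes, at a position that was not examined. Eif4a2 over Eif4a1 within a library was 8.89, 9.80 and 16.5 in the combination, 6.86, 3.48 and 3.33 in PDL1, 2.94, 1.93 and 2.08 in minP1 and 3.07, 1.53 and 1.70 in Ct. The 3 highest ratios were those of the combination, and PDL1 replicate 1 came next. Eif4a1 had 27 counts over the 3 libraries of the combination and 57 over those of PDL1, so single ratios are imprecise.

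Eif4a2 lies on chromosome 16, 23107444 to 23114136, plus strand and Eif4a1 on chromosome 11, 69666936 to 69672423, minus strand. Their promoter windows are set side by side because the proteins are near-identical and the levels were not, Eif4a2 at chr16:23107398-23107497 (plus strand) and Eif4a1 at chr11:69672394-69672493 (minus strand) in GRCm38.p6, with the same span around the RefSeq start. Neither holds a searched motif within these 100 bases.
Eif4a2: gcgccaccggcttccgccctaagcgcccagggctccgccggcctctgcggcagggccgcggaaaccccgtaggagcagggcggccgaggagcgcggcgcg
Eif4a1: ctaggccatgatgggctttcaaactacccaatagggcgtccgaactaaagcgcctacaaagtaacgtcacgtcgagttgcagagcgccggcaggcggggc

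**Figure D4:**
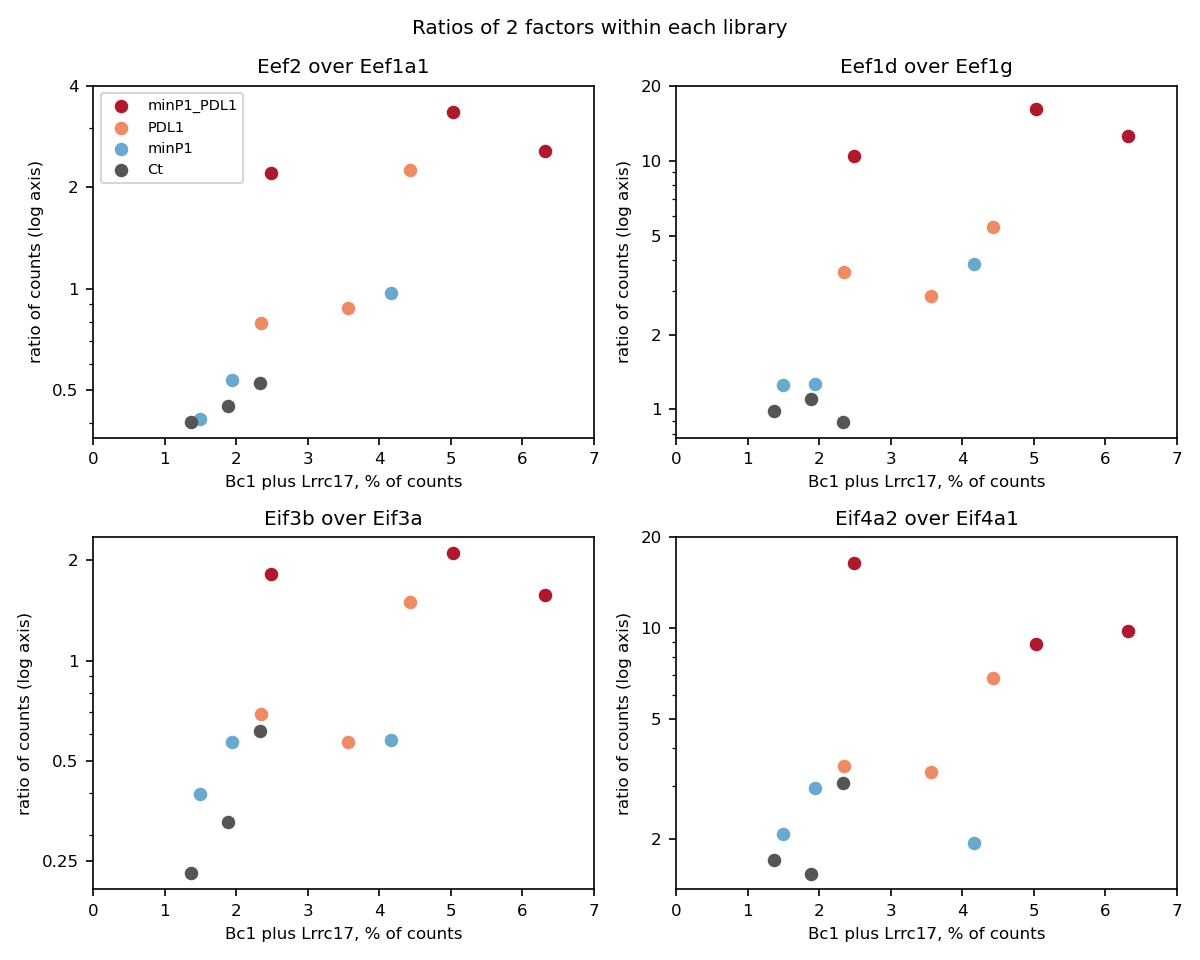
Ratio of the counts of 2 factors within each library (vertical axis, log scale) against the share of counts of Bc1 plus Lrrc17 in percent (horizontal axis), for 12 libraries coloured by group. The combination has the 3 highest ratios for Eef1d over Eef1g, Eif3b over Eif3a and Eif4a2 over Eif4a1. The share on the horizontal axis also tends to be higher there, and within a group the ratios follow it only in part.

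These 4 ratios were chosen after their values were seen and carry no test. They followed the Bc1 plus Lrrc17 share only in part. In the combination, replicate 2, with the highest share (6.32%), had the highest value of none of the 4 ratios. Combination replicate 3, with the lowest share (2.49%), had the lowest Eef2 over Eef1a1 and Eef1d over Eef1g of its group but the highest Eif4a2 over Eif4a1 (16.5). PDL1 replicate 1, with the highest share of its group, had the highest of its group's values for all 4 ratios, and minP1 replicate 2, likewise, for all but Eif4a2 over Eif4a1, where it was lowest. The part of that share was not tested. A further ratio, Eif4e3 over Eif4e, lay above Ct in all 3 libraries of the combination but overlapped PDL1. It was 1.07, 1.19 and 1 in the combination, 2.50, 1 and 0.171 in PDL1, 0.333, 0.972 and 0.484 in minP1 and 0.188, 0.385 and 0.255 in Ct, with the highest value in PDL1 replicate 1. These values rest on 71 counts of Eif4e3 over 66 of Eif4e in the combination, and 52 over 77 in PDL1.

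Among cap-binding genes, Eif4e, the principal cap-binding protein, had 230.5, 95.5 and 129.8 CPM in the combination, 36.3, 111 and 141 CPM in PDL1, 113, 132 and 102 CPM in minP1 and 91.6, 95.1 and 123 CPM in Ct. The groups overlapped, and the combination against Ct did not pass (0.50 ± 0.36, adjusted p = 0.292). Eif4e3, an atypical family member, had 248, 113 and 129.8 CPM in the combination, 90.7, 111 and 24.1 CPM in PDL1, 37.6, 128 and 49.4 CPM in minP1 and 17.2, 36.6 and 31.4 CPM in Ct. All 3 libraries of the combination lay above Ct, and it rose by 2.48 ± 0.52 on the log2 scale (adjusted p = 0.000648), the largest rise among the factors in that comparison, held under all 20 alternatives. The lone treatments gave 1.37 ± 0.53 in PDL1 (adjusted p = 0.164) and 1.33 ± 0.53 in minP1 (adjusted p = 0.562), with libraries as high as 111 CPM and 128 CPM. The gene lies on chromosome 6, 99625135 to 99666771, minus strand. Its 5′ end also matches a stretch in a transcript of Gm20696, an annotated gene that is not in the tables. Eif4e2, an eIF4E homologue that represses translation, averaged 11.6 ± 5.73 CPM in the combination and 31.2 ± 3.99 CPM in Ct and was not tested.

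Of the scaffolds, Eif4g1 had 8.54, 5.97 and 50.8 CPM in the combination, 18.1, 48.2 and 44.8 CPM in PDL1, 97.8, 51.3 and 105 CPM in minP1 and 65.8, 117 and 123 CPM in Ct. It fell in the combination against Ct (-2.10 ± 0.59, adjusted p = 0.00385) and against minP1 (-1.83 ± 0.60, adjusted p = 0.02). Combination replicate 3 decided its size, since without it the log2 fold changes were -3.77 against Ct and -3.51 against minP1. With the Bc1 plus Lrrc17 covariate the change against Ct was -0.99 and not called (adjusted p = 0.220), and the call against minP1 was also lost without minP1 replicate 1 or 3 or combination replicate 1 or 2. Eif4g2, a homologue that lacks the eIF4E site and serves cap-independent initiation, was the most abundant eIF4 gene, with 1135, 979 and 931 CPM in the combination, 858, 775 and 827 CPM in PDL1, 756, 861 and 876 CPM in minP1 and 873, 819 and 804 CPM in Ct. The combination lay above all 9 other libraries, by little, and did not pass (0.28 ± 0.21 against Ct, adjusted p = 0.294). The uncalled remainder in the combination against Ct had log2 fold changes of Eif4g3 -0.79 ± 0.66, Eif4b -0.44 ± 0.27 and Eif4h 0.11 ± 0.23, and Eif4a3, a helicase of the exon junction complex, one of -1.49 ± 0.78. The eIF4 sum was 2746 ± 212 CPM in the combination, 2227 ± 160.0 CPM in PDL1, 2325 ± 165 CPM in minP1 and 2244 ± 50.3 CPM in Ct.

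**Figure D5:**
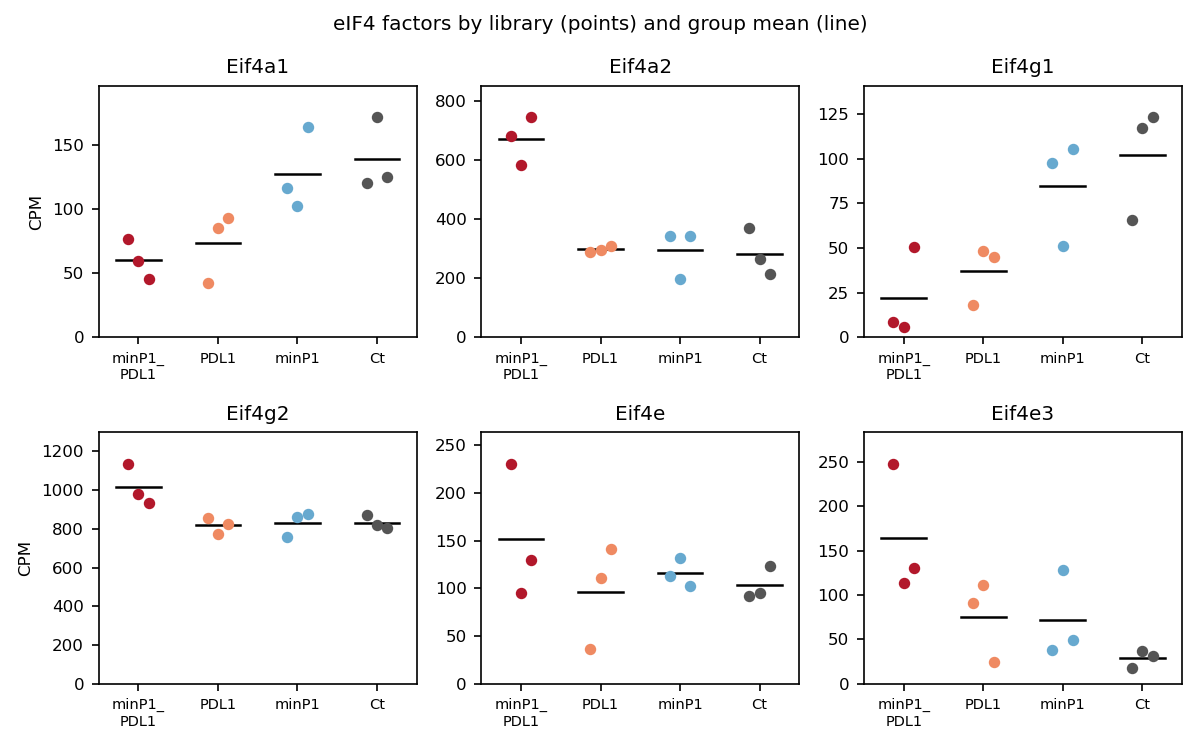
Levels of eIF4 genes in CPM (vertical axis, from 0) by library (points) with group means (lines), for the combination, PDL1, minP1 and Ct from left to right. Eif4a2 stands above all other libraries in the combination, and Eif4a1 and Eif4g1 are lower there on average than in Ct.

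The inhibitors of eIF4E, which hold it away from eIF4G until mTORC1 phosphorylates them, showed no called change. Eif4ebp1 had 68.3, 23.9 and 45.1 CPM in the combination, 66.5, 26.0 and 68.9 CPM in PDL1, 86.5, 29.3 and 72.4 CPM in minP1 and 114, 47.5 and 76.1 CPM in Ct, with overlap throughout (-0.87 ± 0.49 in the combination against Ct, adjusted p = 0.162). For Eif4ebp2 the combination averaged 26.0 ± 3.65 CPM and Ct 47.6 ± 15.0 CPM (-0.88 ± 0.51, adjusted p = 0.165). Eif4enif1, the eIF4E transporter, averaged 33.7 ± 10.2 CPM and 26.2 ± 17.7 CPM and was not tested.

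Late initiation factors and eIF5A showed no called change. Eif5a, the hypusine-bearing factor that helps stalled ribosomes, had 794, 746 and 632 CPM in the combination, 653, 608 and 723 CPM in PDL1, 809, 677 and 711 CPM in minP1 and 999, 669 and 658 CPM in Ct. The groups overlapped, with a log2 fold change of -0.10 ± 0.23 in the combination against Ct (adjusted p = 0.756) and a 95% interval of -0.54 to 0.34. Eif5b, which joins the ribosomal subunits, averaged 279.5 ± 96.4 CPM in the combination, 363 ± 76.8 CPM in PDL1, 443 ± 154 CPM in minP1 and 350.4 ± 149.5 CPM in Ct (-0.32 ± 0.33, adjusted p = 0.473). Eif6, which keeps the large subunit from joining early, averaged 125 ± 56.1 CPM in the combination, 152 ± 20.2 CPM in PDL1, 147 ± 35.0 CPM in minP1 and 158 ± 29.0 CPM in Ct (-0.30 ± 0.31, adjusted p = 0.473). Of the enzymes that modify elongation factors, Eef2kmt, a lysine methyltransferase of eEF2, averaged 57.8 ± 28.6 CPM in the combination and 66.1 ± 10.8 CPM in Ct (-0.25 ± 0.41, adjusted p = 0.674), and Eef1akmt2 38.0 ± 29.4 CPM and 19.4 ± 5.72 CPM, untested.

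Set against the lone treatments, the combination gave fewer calls. Against minP1, 11 of 49 factors passed, 2 higher (Eef2 and Eif4a2) and 9 lower (Eef1a1, Eef1e1, Eef1g, Eif2s2, Eif3a, Eif3d, Eif3k, Eif4a1 and Eif4g1), which is 22.4% against 20% of all tested genes (9.19% higher and 10.8% lower). Against PDL1, 2 of 49 passed, Eif4a2 higher and Eef1g lower, which is 4.08% against 6.94% of all tested genes (2.99% higher and 3.95% lower). The numbers without overlap were 17 of 49 against minP1 (37.5% of all tested genes) and 12 of 49 against PDL1 (27.3% of all tested genes). Several factors lay just over the threshold against PDL1, among them Eif2s2 (adjusted p = 0.0512), Eef1a1 (-0.79 ± 0.25, adjusted p = 0.0525) and Eef1e1 (adjusted p = 0.0696). For the interaction no factor passed in edgeR (3 had an unadjusted p under 0.05) or in DESeq2, and 0% of all tested genes were called in edgeR. These comparisons share libraries, so their calls are not independent of one another.

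In 42 of the 54 members with a RefSeq promoter of 300 bases (250 before and 50 after the start), 4 motifs were searched. The E-box CACGTG, the site of Myc and its relatives, was found in 10 (23.8%), namely Eef2, Eif1b, Eif3a, Eif3f, Eif3k, Eif4a1, Eif4e, Eif4g1, Eif4h and Eif5a, against 8.09% of 27025 genes. Of these, 1 (Eef2) rose in the combination against Ct, 4 fell (Eif3a, Eif3k, Eif4a1 and Eif4g1) and 5 were not called. Among all tested genes 16.5% rose and 18.3% fell in that comparison. The Ets site CCGGAAGT, on either strand, was found in 6 (14.3%), Eef1b2, Eif2b4, Eif3d, Eif3l, Eif4e2 and Eif5a, against 4.31%. The cAMP response element TGACGTCA was found in 1 (2.38%) against 2.03%, and TATAAA on the gene's own strand in 4 (9.52%) against 9.77%. CACGTG and TGACGTCA read the same on both strands, and none of the 4 contains another. The 27025 genes were not chosen by level, whereas the members had at least 50 counts, so these shares do not compare like with like. A match is a description of the letters, not of binding.

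Other genes of the pathway were taken from lists, read beside the same 34.8% of all tested genes called in the combination against Ct. Unlike those of the members, the calls of these genes were not followed under the alternatives. With the Bc1 plus Lrrc17 covariate 774 genes were called in that comparison, against 1892 without it. Cytosolic ribosomal proteins fell most broadly, with 51 of 82 tested genes lower, 10 higher and a median log2 fold change of -1.22, and many of them have near-identical pseudogenes. Of 20 tested cytosolic aminoacyl-tRNA synthetases, which charge tRNAs, 7 fell (Eprs, Hars, Kars, Lars, Rars, Sars and Vars) and Farsa rose. Sars, the seryl-tRNA synthetase, averaged 49.3 ± 23.0 CPM in the combination and 162 ± 16.5 CPM in Ct (-1.65 ± 0.35, adjusted p = 0.000648). Eprs, Kars, Lars and Rars are partners of the Eef1e1 product in the multi-tRNA synthetase complex, and Eprs averaged 79.5 ± 24.7 CPM in the combination and 209 ± 79.4 CPM in Ct (-1.36 ± 0.36, adjusted p = 0.00427).

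Of 6 tested termination and recycling genes 3 fell, among them Etf1 (-1.09 ± 0.30, adjusted p = 0.00636) and Gspt1 (-1.51 ± 0.41, adjusted p = 0.00409), the 2 release factors, and Denr, which recycles ribosomes. Of 9 tested poly(A)-binding proteins and partners, Paip2b (1.88 ± 0.34, adjusted p = 0.000208) and Larp1 (1.16 ± 0.26, adjusted p = 0.00174) rose and Paip2 fell (-0.84 ± 0.29, adjusted p = 0.0271). Larp1, a binder of oligopyrimidine mRNAs, averaged 476 ± 94.4 CPM in the combination and 211 ± 41.0 CPM in Ct. Among 8 other oligopyrimidine mRNAs tested, Npm1 (-1.46 ± 0.22, adjusted p = 3.05e-05), Tpt1 (-0.89 ± 0.23, adjusted p = 0.00554) and Nap1l1 (-0.59 ± 0.21, adjusted p = 0.0299) fell and Btf3 rose (1.49 ± 0.29, adjusted p = 0.00049). As with the eEF1 subunits and Eef2, mRNAs of this class thus went both ways.

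Of 7 tested targets of the integrated stress response, which eIF2 alpha phosphorylation sets off, Atf4 rose (1229.7 ± 145 CPM in the combination and 642 ± 26.9 CPM in Ct, 0.93 ± 0.22, adjusted p = 0.00225), as did Gadd45a (1.45 ± 0.37, adjusted p = 0.00397), while Atf3 fell (-1.95 ± 0.72, adjusted p = 0.0203). Only 3 of 16 genes of mTORC1 signalling were deep enough to test, and Rps6kb1, the S6 kinase, fell (-1.58 ± 0.60, adjusted p = 0.0286). Of 4 tested mitochondrial translation factors Tsfm fell (-1.23 ± 0.49, adjusted p = 0.041). Of 2 tested genes of eIF5A hypusination, Odc1, which makes putrescine, rose (0.69 ± 0.25, adjusted p = 0.0335) and Dhps, the hypusine synthase, did not pass (-0.16 ± 0.38, adjusted p = 0.768). Several calls from the lists rest on few counts in the combination, among them Atf3 (7), Rps6kb1 (8), Tsfm (12) and Gspt1 (15).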

How the data were processed

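The deposited tables, 1 per sample, hold the authors' unnormalized whole-number counts per gene symbol. Tools named in the submitters' processing notes, with no role stated, are R 3.6.1, Bowtie2 2.2.5 and DESeq2, and the build is mm10. How tags were counted, and whether strand was used, is not given in the sources used here. No molecular identifiers are recorded, so amplification copies cannot be told from separate molecules. The SDs, SEs and tests include variation between mice, while the exact intervals of Eef1e1 cover counting error only. Per the labels, each sample is 1 mouse. No 2 tables were identical.

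Genes were filtered with filterByExpr (5443 kept), scaled with TMM factors and tested with edgeR 4.0.16 (R 4.3.3, prior count 0.125) on all 12 samples, 1 mean per group, quasi-likelihood test, Benjamini-Hochberg adjustment over all kept genes in each of 6 comparisons, threshold 0.05. The scripts were tested on simulated data. An exact permutation test of 3 against 3 cannot go below 0.1 and was not used. Total counts ranged from 133917 to 473273. Alternatives were DESeq2 1.42.0, its size factors, no filter, a replicate block, the Bc1 plus Lrrc17 level as covariate, the compared groups only, equal depth, and leaving out libraries.

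Members and gene lists were chosen with earlier results of these data known. Per comparison, up to 10 called members in each direction, the most abundant member of each complex and 10 fixed members were given in full, and up to 4 genes per pathway list by smallest p. Gene positions are from GENCODE M21 (GRCm38) and promoters from RefSeq (GRCm38.p6). Protein sequences were not used here.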

Additional observations from a re-analysis of the deposited data

How the results depend on the processing

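The count of factors called in the combination against Ct was 20, fell to 7 with the Bc1 plus Lrrc17 covariate and ran from 15 to 20 when a library was left out. In PDL1 against Ct it was 2, and 0 with that covariate, at equal depth and without minP1 replicate 2 and PDL1 replicate 1, 3 with DESeq2, 3 with only the compared groups, and 0 to 2 with a library left out. In the combination against PDL1 it was 2, and 4 with the replicate block, 4 with the covariate, 4 with DESeq2, 5 without those 2 libraries and 1 to 4 with a library left out. In the combination against minP1 it was 11, and 7 with the covariate, 7 at equal depth, 16 without those 2 libraries and 6 to 15 with a library left out. In minP1 against Ct and for the interaction it was 0 under every alternative run. The interaction has no fit with only the compared groups. Calls among all tested genes moved as well. In the combination against Ct they went from 1892 to 774 with the covariate. Against minP1 they went from 1088 to 586 with the covariate and to 1351 without those 2 libraries. Against PDL1 they went from 378 to 430 and 624 in these settings, and in PDL1 against Ct from 61 to 29 and 23.

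The labels tie the replicate numbers to no shared animal, day or batch, and not every same-numbered pair correlated over 0.1, so the numbers were not taken to pair the samples. The deviations of 18 same-numbered pairs correlated at -0.12 to 0.20, 9 of them over 0.1, and 7 of 12 samples correlated best with their own number, a hint from the data and not from the design. Pairs of different number, from different groups, correlated at -0.28 to 0.28, a range that reached higher. With the replicate block the counts were 20 (combination against Ct), 14 (against minP1), 4 (against PDL1) and 2 (PDL1 against Ct).

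Of the called changes of single factors, 232 of 280 alternative values kept the call and 48 lost it, and with a library left out 355 kept it and 65 lost it. None of them reversed. Reversals (22) touched 13 uncalled factors in the combination against Ct. At equal depth Eef2kmt was 0.040 and Eif3l -0.22. With the covariate Eif1ad was -0.0038, Eif1b 0.35, Eif3c -0.18, Eif3e -0.27, Eif3l -0.11, Eif4b 0.030, Eif4g3 0.67 and Eif6 0.089. With a library left out the ranges were -0.58 to 0.12 for Eef2kmt, -0.039 to 0.16 for Eif1a, -0.31 to 0.038 for Eif1b, -0.46 to 0.25 for Eif2b5, -0.013 to 0.61 for Eif3c, -0.32 to 0.12 for Eif3i, -0.23 to 0.61 for Eif3l and -0.21 to 0.17 for Eif5a. The cause of these moves was not tested, apart from the lower number of samples or counts that leaving out libraries and equal depth bring by construction. With no filter on low counts the median log2 fold change of all genes in the interaction was -0.21, against -0.09. Depth left factors with under 87 counts over the 12 tables untested.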

Other observations

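The 13 symbols of the family under 50 counts were the eIF2 alpha kinases Eif2ak4 (33 counts over the 12 tables), Eif2ak1 (30) and Eif2ak3 (23), the eIF2B subunits Eif2b2 (30) and Eif2b1 (11), Eif2s3y (2), Eif4e1b (5), Eif4ebp3 (46), the eEF2 kinase Eef2k (16), Eef1a2 (12), and the modifying enzymes Eef1akmt1 (18), Eef1akmt4 (12) and Eef1akmt4-ece2 (3). Eef1a2, the muscle and nerve paralogue of Eef1a1, thus had 12 counts against 9601 for Eef1a1. PKR (Eif2ak2) was the only one of the 4 eIF2 alpha kinases to reach the minimum.

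By annotation, 17 members overlap a counted gene, 14 of them a gene on the opposite strand. Serp1, a stress-related protein of the endoplasmic reticulum, overlaps Eif2a and had 444 counts in the combination, 346 in PDL1, 299 in minP1 and 255 in Ct, although the combination's libraries were the shallowest. Eif2a had 8 counts in the combination. Banf1, which overlaps Eif1ad, had 134 counts in the combination, 182 in PDL1, 186 in minP1 and 238 in Ct. These pairs were noticed after their values were seen, and whether tags of a pair were shared was not tested. In 8 members the 5′ end is near-identical to a stretch in a transcript of another annotated gene. They are Eif1, Eif3e, Eif3j2, Eif3m, Eif4a1, Eif4e, Eif4e3 and Eif5a, and whether their tags are shared is not known.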
